A study of Homo sapiens with 12 samples.

Results

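The Notch genes described here are 10 genes chosen by name, with no measured value used in the choice: the receptors NOTCH1, NOTCH2 and NOTCH3, the ligands JAG1, JAG2 and DLL1, the DNA-binding factor RBPJ, and the target genes HES1, HEY1 and HEY2. They were followed in SK-UT-1, an established line grown from a human uterine leiomyosarcoma (uLMS), in bulk RNA-seq of total RNA. Cultures received the DMSO vehicle, 5 µM JQ1 or 5 µM I-BET 762 for 48 h, and values were analysed for 3 DMSO libraries (replicates 13 to 15), 4 JQ1 libraries (17 to 20) and 3 I-BET 762 libraries (21 to 23). DMSO replicate 16 and I-BET 762 replicate 24 were not analysed here. All groups were the same cell line, so what differed by label was the compound. No source states whether the libraries of a group came from separate cultures, so the p-values below measure the spread between these libraries, which may be technical. Of the 22784 gene symbols in the expression table, 14839 were tested, and 9 of the 10 members were in the table. DLL1 was not analysed here. Of the 9, 7 were tested, while HEY1 and HEY2 lay under the filter of at least 10 normalized counts in at least 3 libraries and are described from their reads.

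Notch receptors are single-pass membrane proteins that are activated by Jagged or Delta-like ligands on a neighbouring cell. Ligand binding exposes the receptor to ADAM proteases and then to γ-secretase, which frees the intracellular part of the receptor. This fragment enters the nucleus, binds RBPJ together with a Mastermind coactivator, and switches on genes of the HES and HEY families, which encode transcriptional repressors. In smooth muscle, NOTCH3 and JAG1 are known for their part in maintaining the contractile state. JQ1 and I-BET 762 are BET inhibitors, small molecules that compete with acetylated lysine for the bromodomains of the BET family of chromatin proteins. Both share a fused triazolodiazepine core with a chlorophenyl and a methyl group. JQ1 has a thiophene ring fused to that core and carries a tert-butyl ester, whereas I-BET 762 has a methoxy-substituted benzene ring and an ethyl amide.

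Reads on genes ranged from 35564586 to 39658989 per library, and the values are given as normalized counts, in which each library's reads are divided by a scaling factor of 0.910 to 1.10. A count of 0 allows up to 3 reads, or 2.73 to 3.30 normalized counts, and this limit covers counting error alone. Of 10 smooth muscle marker genes, 9 were in the table and tested, and their summed normalized count was 36527 to 38431 with DMSO, 22897 to 23149.9 with JQ1 and 23229.8 to 23692 with I-BET 762. MYH11 was not analysed here. ACTA2 averaged 7071 with DMSO, 3075 with JQ1 and 3350 with I-BET 762, and DES 187, 7.79 and 20.1. The changes differed in size between the genes: TAGLN averaged 1599, 126 and 157 in these groups, and MYLK 405, 220 and 372. Leukocyte markers (5 of 6 in the table) summed to 19.7 to 37.5 in any library. Endothelial markers, which mark cells that also use Notch receptors, summed to 23.7 to 46.2 with DMSO, 17.4 to 28.0 with JQ1 and 20.1 to 32.5 with I-BET 762, and 4 of the 8 had at most 3 reads in every DMSO library. Epithelial markers (7 of 7 in the table) summed to 1241 to 1313 with DMSO, 518 to 612 with JQ1 and 509 to 550.4 with I-BET 762. The smooth muscle and epithelial sums fell with both inhibitors. Of the members described below, NOTCH3, JAG1 and HES1 also fell, while NOTCH1 rose and RBPJ was not called. Within the smooth muscle list SMTN went the other way, averaging 2324 with DMSO, 2644 with JQ1 and 2657 with I-BET 762. The part of these markers in the Notch results was not tested. In bulk RNA, fewer cells of a type and less RNA per cell cannot be told apart.

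With DMSO, the members spanned a wide range of levels. Per kilobase of annotated exon, the mean normalized count was 888 for NOTCH2, 205 for RBPJ, 145 for HES1, 116 for JAG1, 59.7 for NOTCH1, 52.6 for JAG2 and 21.0 for NOTCH3. NOTCH1 and JAG2 were neighbours in this order whose DMSO libraries overlapped. With JQ1 the order became NOTCH2 at 695, RBPJ at 209.8, NOTCH1 at 95, HES1 at 90.8, JAG2 at 41.2, JAG1 at 22.1 and NOTCH3 at 12.1. On this scale I-BET 762 gave the same order, with NOTCH2 at 803, RBPJ at 218, NOTCH1 at 89.3, HES1 at 81.0, JAG2 at 39.6, JAG1 at 30.5 and NOTCH3 at 12.6. In both inhibitor groups the libraries of NOTCH1 and HES1 overlapped on this scale, and with JQ1 so did those of JAG2 and JAG1, and of JAG1 and NOTCH3. Per kilobase of the longest transcript the order of means was kept with DMSO and JQ1, whereas with I-BET 762 JAG1 at 47.7 was above JAG2 at 43.9. NOTCH2 was thus the most abundant and NOTCH3 the least abundant of the tested receptors in each group.

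**Figure D1:**
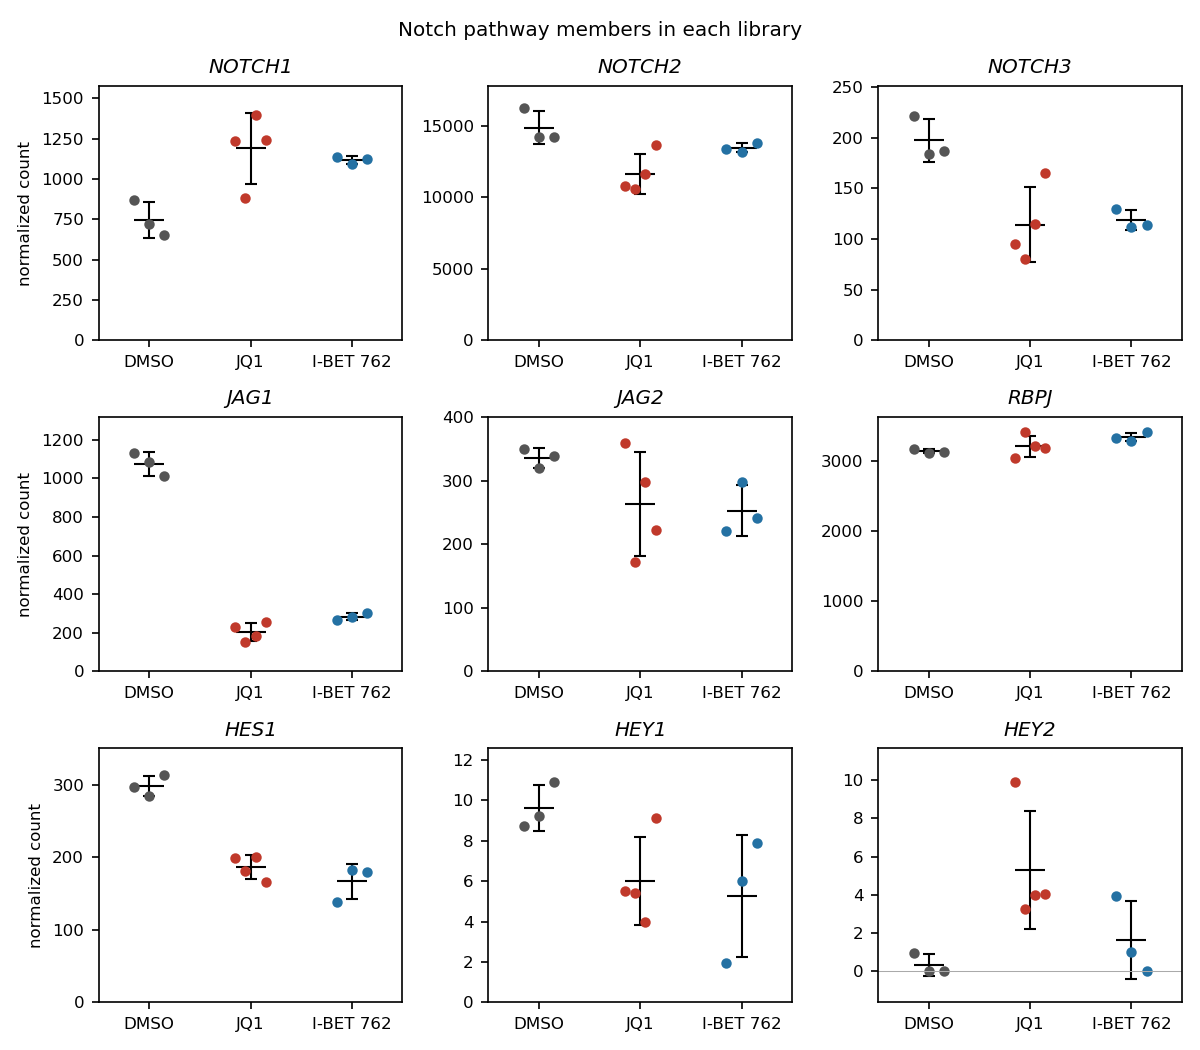
Normalized count (linear vertical axis, with its own scale in each panel) of the 9 Notch genes in the table, in 3 DMSO, 4 JQ1 and 3 I-BET 762 libraries. Points are libraries, the horizontal bar is the group mean and the whiskers are 1 SD. JAG1 stands apart most, with DMSO libraries at 1011 to 1133 and all inhibitor libraries at or under 301, while RBPJ stays between 3047 and 3411 throughout.

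The question put to each gene was whether BET inhibition changed its expression relative to DMSO. A gene was called when limma gave a Benjamini-Hochberg adjusted p under 0.05 over all tested genes and the fold change was over 1.5 in either direction. With JQ1, 4 of the 7 tested members were called: NOTCH1 rose, and NOTCH3, JAG1 and HES1 fell. Among all tested genes 13.3% were called higher and 22.8% lower with JQ1. With I-BET 762 the same 4 members were called in the same directions, against 8.96% of all tested genes called higher and 17.9% lower. Both comparisons used the same DMSO libraries, so they are not independent of each other. By the adjusted p alone, 5 of 7 members passed with JQ1, where 71.7% of all tested genes did, and 4 of 7 with I-BET 762, where 61.1% did. These shares were near the background. The median log2 fold change over the 7 tested members was −0.40 with JQ1 and −0.42 with I-BET 762, beside 0.008 and −0.001 over all tested genes. The inhibitor libraries lay wholly to one side of the DMSO libraries for 5 of 7 members with JQ1 (68.4% of all tested genes) and for 7 of 7 with I-BET 762 (71.0%).

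**Figure D2:**
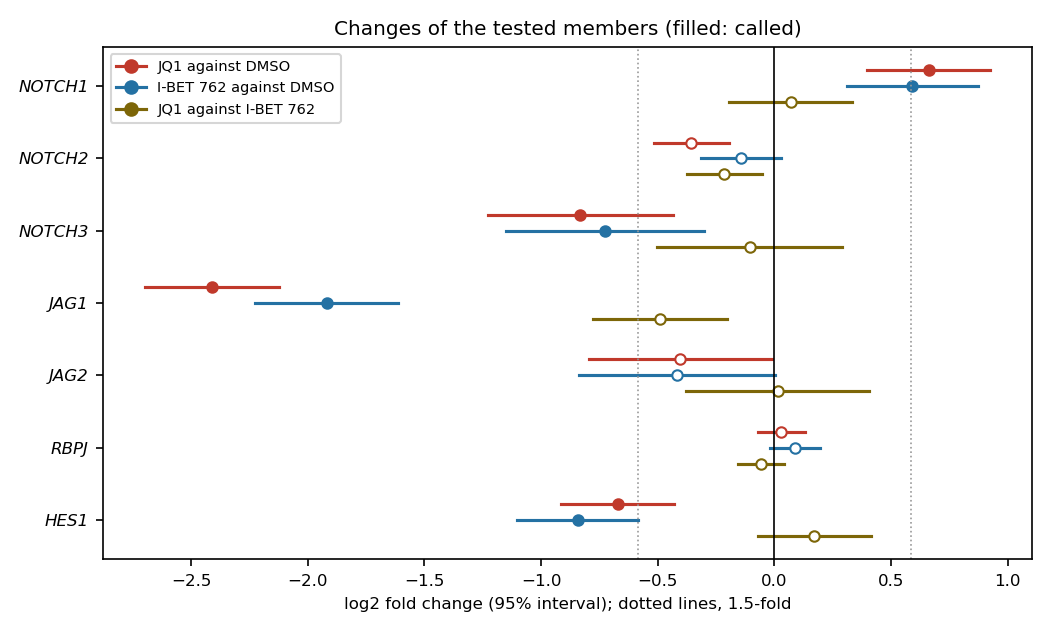
Log2 fold change of the 7 tested Notch genes on the horizontal axis, for JQ1 against DMSO, I-BET 762 against DMSO and JQ1 against I-BET 762, with limma's 95% interval as a bar. Filled circles are called, open circles are not, and the dotted lines mark a fold change of 1.5. NOTCH1 lies to the right and NOTCH3, JAG1 and HES1 to the left of 0 with both inhibitors, and no circle is filled for JQ1 against I-BET 762.

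Among the receptors, NOTCH1 (Gencode V44, hg38, chr9:136494433-136546048, minus strand) rose with both inhibitors. Its normalized counts were 872, 719 and 652 in the DMSO libraries, 1237, 881, 1398 and 1245 in the JQ1 libraries, and 1137, 1093 and 1125 in the I-BET 762 libraries. All 7 inhibitor libraries were above all 3 DMSO libraries, although JQ1 replicate 18 exceeded DMSO replicate 13 by only a few counts. The rise was 1.58-fold with JQ1 (log2 0.66 ± 0.12 SE, limma Benjamini-Hochberg adjusted p = 0.00017) and 1.51-fold with I-BET 762 (log2 0.59 ± 0.13, limma adjusted p = 0.00112). Both lay close to the 1.5-fold threshold, and the call was lost for JQ1 without DMSO replicate 15 (log2 0.57) or JQ1 replicate 19 (0.58), and for I-BET 762 without DMSO replicate 14 (0.57), DMSO replicate 15 (0.50) or I-BET 762 replicate 21 (0.58). Rescaling the libraries to equal totals gave log2 changes of 0.475 and 0.494, still above 0 but under the fold threshold.

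NOTCH3 (chr19:15159038-15200995, minus strand), the receptor best known from vascular smooth muscle, moved the other way. The libraries held normalized counts of 222, 184 and 187 with DMSO, 95.6, 80.5, 115 and 165 with JQ1, and 129.9, 112 and 114 with I-BET 762. Every inhibitor library was below every DMSO library, and JQ1 replicate 20 came nearest to them. NOTCH3 fell by 0.83 on the log2 scale with JQ1 (SE 0.19, 1.78-fold, limma adjusted p = 0.000845) and by 0.73 with I-BET 762 (SE 0.20, 1.65-fold, limma adjusted p = 0.00508). Because NOTCH1 was higher and NOTCH3 lower, the ratio of NOTCH1 to NOTCH3 per kilobase of exon, which does not depend on the scaling between libraries, was 2.63 to 2.95 with DMSO, 5.66 to 9.72 with JQ1 and 6.58 to 7.40 with I-BET 762.

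NOTCH2 (chr1:119911553-120100779, minus strand) was the receptor with by far the most reads. Its normalized counts were 16209.9, 14197 and 14187 with DMSO, 10766, 10576, 11594 and 13644 with JQ1, and 13345, 13196 and 13810.3 with I-BET 762. All inhibitor libraries were below the lowest DMSO library, by a small margin for JQ1 replicate 20 and the I-BET 762 libraries. The change passed the adjusted p with JQ1 but at 1.28-fold stayed under the fold threshold (log2 −0.36 ± 0.08, limma adjusted p = 0.000508), and I-BET 762 gave −0.14 ± 0.08 (limma adjusted p = 0.14). The ratio of NOTCH2 to NOTCH1 per kilobase was 13.9 to 16.3 with DMSO, 6.21 to 8.98 with JQ1 and 8.78 to 9.19 with I-BET 762, so NOTCH2 kept the higher level in every library. Of 152 exon windows of 75 bases in the longest NOTCH2 transcript, 4 (2.63%) have an exact copy in the NOTCH2NL genes or their NBPF neighbours, and how such reads were counted is not stated. The NOTCH2NL genes averaged from 21.9 to 454 normalized counts in any group.

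JAG1 (chr20:10637684-10673999, minus strand), a membrane-bound ligand, showed the largest change of the 7 tested members with each inhibitor. Its normalized counts were 1133, 1083 and 1011 with DMSO, 231, 153, 182 and 255 with JQ1, and 268, 282 and 301 with I-BET 762. All 7 inhibitor libraries were far below the lowest DMSO library, and all 4 JQ1 libraries were below all 3 I-BET 762 libraries. JAG1 fell by 2.41 on the log2 scale with JQ1 (SE 0.13, 5.32-fold, limma adjusted p = 1.91e-10) and by 1.92 with I-BET 762 (SE 0.14, 3.78-fold, limma adjusted p = 1.5e-08). Across the 19 alternative settings the log2 change stayed between −2.60 and −2.28 with JQ1 and between −2.02 and −1.88 with I-BET 762. An unnamed gene on the opposite strand (ENSG00000270792) overlaps 306 bases (3.29%) of JAG1 exons, and whether counting used the strand is not stated.

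JAG2 (chr14:105140982-105168824, minus strand) encodes the other Jagged ligand. Normalized counts of JAG2 were 349.6, 319.9 and 339 with DMSO, 359, 173, 299 and 223 with JQ1, and 221, 298 and 241 with I-BET 762. JQ1 replicate 17 was above all DMSO libraries while JQ1 replicate 18 was far below them, and the I-BET 762 libraries were all below DMSO. Neither change was called, at log2 −0.40 ± 0.18 with JQ1 (limma adjusted p = 0.0608) and −0.42 ± 0.20 with I-BET 762 (limma adjusted p = 0.0782). The gene ENSG00000257622 shares 469 exon bases (7.33%) with JAG2 on the same strand.

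The level of JAG1 relative to JAG2 was lower with both inhibitors. Per kilobase of exon, the ratio of JAG1 to JAG2 within a library was 2.05 to 2.33 in the DMSO libraries, 0.419 to 0.785 in the JQ1 libraries and 0.651 to 0.859 in the I-BET 762 libraries. The ratio was lower in each inhibitor library than in each DMSO library, a comparison that gene length does not touch, since length multiplies every library's ratio alike. JAG1 was the higher of these ligand genes in each of the 3 DMSO libraries, but which was higher with an inhibitor depended on the length used. Per kilobase of the longest transcript, 5940 bases for JAG1 and 5773 for JAG2, an alternative chosen after seeing the data, the ratio was 2.89 to 3.29 with DMSO, 0.592 to 1.11 with JQ1 and 0.92 to 1.21 with I-BET 762. JAG1 then stayed the higher in 1 of 4 JQ1 libraries, replicate 20, and in 2 of 3 I-BET 762 libraries, replicates 21 and 23.

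**Figure D3:**
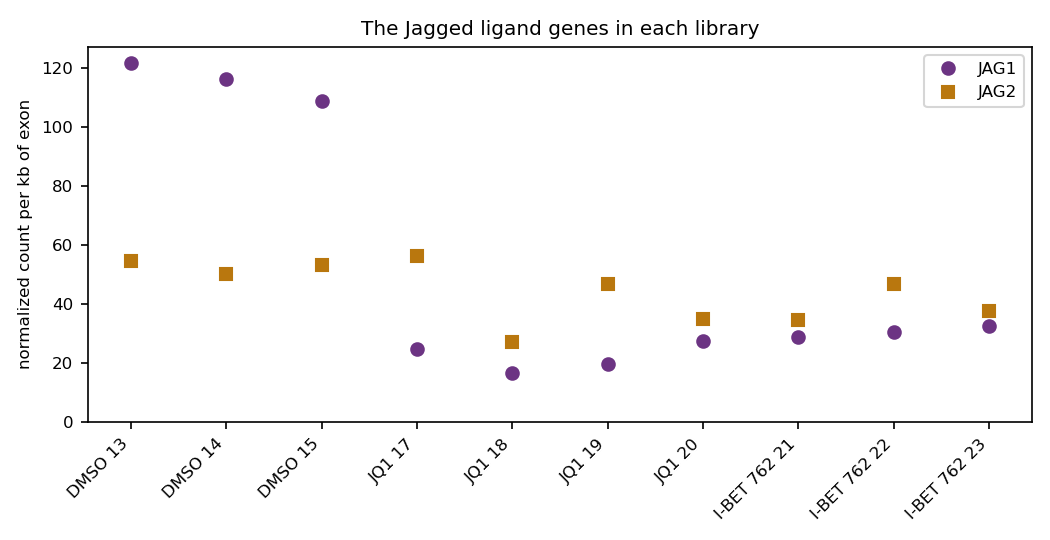
Normalized count per kilobase of annotated exon (vertical axis, from 0) of JAG1 (circles) and JAG2 (squares) in each of the 10 libraries on the horizontal axis. JAG1 lies above JAG2 in the 3 DMSO libraries, with a ratio of 2.05 to 2.33, and below it in the 7 inhibitor libraries on this length scale, which by longest transcript holds in 4 of them.

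RBPJ (chr4:26163455-26435131, plus strand), the factor through which the freed receptor fragment reaches DNA, was not called in any comparison. Its normalized counts were 3176, 3121 and 3135 with DMSO, 3047, 3411, 3209 and 3182 with JQ1, and 3326, 3288 and 3408 with I-BET 762. The JQ1 libraries lay on both sides of the DMSO libraries, and the I-BET 762 libraries were all slightly above them. The log2 fold change was 0.03 with JQ1 (95% interval −0.07 to 0.13, limma adjusted p = 0.58) and 0.09 with I-BET 762 (−0.02 to 0.19, limma adjusted p = 0.141). Its sign turned when libraries were rescaled to equal totals (−0.155 and −0.009) and, with JQ1, to equal upper quartiles (−0.035).

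HES1 (chr3:194136148-194138732, plus strand), a basic helix-loop-helix repressor and the best known Notch target, fell with both inhibitors. Normalized HES1 counts were 296, 285 and 313 with DMSO, 199, 182, 201 and 166 with JQ1, and 139, 182 and 179 with I-BET 762. No inhibitor library overlapped the DMSO libraries, and I-BET 762 replicate 21 was the lowest. HES1 fell by 0.67 on the log2 scale with JQ1 (SE 0.11, 1.59-fold, limma adjusted p = 6.71e-05) and by 0.84 with I-BET 762 (SE 0.12, 1.79-fold, limma adjusted p = 2.09e-05). These calls held under all 19 alternative settings that kept the 1.5-fold threshold, in both comparisons, and were lost when a fold over 2 was required.

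HEY1 and HEY2, the other HES-related targets on the list, were close to the detection limit. HEY1 had 8.72, 9.25 and 10.9 normalized counts with DMSO, 5.49, 5.44, 4.0 and 9.13 with JQ1, and 1.97, 6.02 and 7.88 with I-BET 762. Its summed reads were 31 with DMSO, 23 with JQ1 and 16 with I-BET 762, for a ratio to DMSO of 0.625 with JQ1 (exact 95% interval 0.348 to 1.11) and 0.547 with I-BET 762 (0.280 to 1.03). The groups overlapped with JQ1 and did not with I-BET 762 (two-sided exact permutation p = 0.114 and p = 0.1, each 0.171 after Benjamini-Hochberg adjustment over 6 tests). HEY2 (chr6:125747664-125761269, plus strand), which is prominent in vascular smooth muscle, had 0.969, 0 and 0 normalized counts with DMSO, 9.89, 3.26, 4.0 and 4.06 with JQ1, and 3.94, 1.0 and 0 with I-BET 762. That is 1 read with DMSO against 20 with JQ1, a ratio of 16.8 with an exact interval of 2.69 to 698, and all 4 JQ1 libraries were above all DMSO libraries (two-sided exact permutation p = 0.0571, the smallest that 3 against 4 libraries allow, adjusted 0.171). I-BET 762 had 5 HEY2 reads, a ratio of 5.30 (0.593 to 251, two-sided exact permutation p = 0.4, adjusted 0.48), and the smallest p that 3 against 3 libraries allow is 0.1. The exact intervals pool the reads of a group's libraries and cover counting error only, and the permutation tests could not pass 0.05 at this number of libraries. With the filter on low counts removed, limma called HEY2 with JQ1, at log2 2.22 (limma adjusted p = 0.00223), on the same 1 and 20 reads. This made 5 members called with JQ1, out of the 9 in the table. Of the 22784 symbols in that fit, 2143 were called higher and 4113 lower with JQ1. In that fit HEY2 was at log2 0.78 with I-BET 762 (limma adjusted p = 0.322), and HEY1 was at −0.64 with JQ1 (limma adjusted p = 0.255) and −0.89 with I-BET 762 (limma adjusted p = 0.148), none of them called.

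To show the members' promoters beside these values, the letters TGGGAA (or TTCCCA on the other strand), the core of the site that RBPJ is known to bind, were searched in the 250 bases before each RefSeq start site. Of 35116 RefSeq promoters (GRCh38.p14), 20.8% hold this core and 2.9% hold at least 2 matches. The longer GTGGGAA, which contains the core, is in 5.43%. Of the 8 members matched in the RefSeq table, 3 hold the core, namely HES1, HEY2 and RBPJ, the last in 1 of its 5 promoters. This count is per gene, with any promoter sufficing, whereas the 20.8% is per promoter. Counted per gene, 12 of the 51 other pathway genes with a RefSeq promoter hold the core. The longer form is in 3 of the 8 members and in 5 of these 51 genes. HES1 holds 2 matches, whose first bases lie 84 and 70 bases before the start site, and HEY2 holds 1, at 213 bases. Of the 2 HES1 matches, only that at 84 bases is part of the longer form. JAG1, the member that changed most, holds none. The windows of HES1 (chr3:194135898-194136147, plus strand), HEY2 (chr6:125749382-125749631, plus strand) and JAG1 (chr20:10674000-10674249, minus strand) are given 5′ to 3′ on the gene's own strand, with matches in capitals. They set a promoter with 2 cores, both in the same orientation, beside one with a single core and one without. Only exact letters were searched, so any site that differs from the core is not marked. The windows contain 0 bases of annotated Gencode exons.
HES1: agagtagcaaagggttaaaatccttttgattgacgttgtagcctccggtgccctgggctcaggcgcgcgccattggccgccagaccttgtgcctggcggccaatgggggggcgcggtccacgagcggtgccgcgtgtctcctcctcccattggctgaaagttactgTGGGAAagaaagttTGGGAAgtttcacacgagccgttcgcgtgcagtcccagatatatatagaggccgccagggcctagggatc
HEY2: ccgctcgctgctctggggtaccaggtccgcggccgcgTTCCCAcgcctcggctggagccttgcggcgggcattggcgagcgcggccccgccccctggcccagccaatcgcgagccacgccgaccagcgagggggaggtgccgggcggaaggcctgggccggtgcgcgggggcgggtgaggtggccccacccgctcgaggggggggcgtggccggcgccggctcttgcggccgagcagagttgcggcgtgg
JAG1: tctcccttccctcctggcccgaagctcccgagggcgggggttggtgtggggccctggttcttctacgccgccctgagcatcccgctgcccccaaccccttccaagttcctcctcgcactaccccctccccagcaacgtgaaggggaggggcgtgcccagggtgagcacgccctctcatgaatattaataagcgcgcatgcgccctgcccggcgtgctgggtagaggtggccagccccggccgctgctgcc

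These matches describe letters only: HES1 with its 2 matches fell with both inhibitors, RBPJ with 2 matches in 1 promoter was not called, and JAG1 fell without a match in this window.

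JQ1 and I-BET 762 were compared directly at the same dose and time, as 1 pair of compounds, with p-values adjusted over all tested genes. None of the 7 tested members was called by limma, where 1.73% of all tested genes were called higher with JQ1 and 3.59% lower. At an unadjusted p under 0.05 there were 2 members, both of which also passed the adjusted p alone, as 27.3% of all tested genes did, and limma-voom on recovered reads called 0. JAG1 was lower with JQ1 by 1.41-fold (log2 −0.49, 95% interval −0.78 to −0.21, limma adjusted p = 0.0133), and it was the 1 member whose 2 inhibitor groups did not overlap (33.8% of all tested genes). Its adjusted p ranged from 0.00217 to 0.0657 across the alternatives, the highest without I-BET 762 replicate 23, and without JQ1 replicate 20, the JQ1 library with the highest JAG1 count, it was called at log2 −0.60. NOTCH2 was lower with JQ1 by 1.16-fold (log2 −0.22, −0.38 to −0.06, limma adjusted p = 0.045, from 0.0018 to 0.15 across the alternatives).

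For the other tested members the difference between JQ1 and I-BET 762 did not pass the test, which does not show that the compounds act alike on them. The log2 difference was 0.17 for HES1 (95% interval −0.07 to 0.41), 0.07 for NOTCH1 (−0.19 to 0.33), −0.11 for NOTCH3 (−0.50 to 0.29), 0.01 for JAG2 (−0.38 to 0.40) and −0.06 for RBPJ (−0.16 to 0.04). All 5 of these intervals lay within 1.5-fold in either direction, whereas that of JAG1 reached beyond it. HEY2 had 20 reads with JQ1 and 5 with I-BET 762, a ratio of 3.18 (exact interval 1.16 to 10.8, two-sided exact permutation p = 0.114), and HEY1 had a ratio of 1.14 (0.577 to 2.31, exact permutation p = 0.629).

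Libraries of a group differed in ways the members shared. DMSO replicate 13 had the highest value of its group for 6 of the 7 tested members, with HES1 as the exception. JQ1 replicate 18 had the lowest value of its group for NOTCH1, NOTCH2, NOTCH3, JAG1 and JAG2, and JQ1 replicate 20 the highest for NOTCH2, NOTCH3 and JAG1. Such ranks were not taken over all tested genes, so they are not shown to be particular to these members. No batch is labelled. The called falls of NOTCH3, JAG1 and HES1 with each inhibitor were kept without any 1 of the 10 libraries.

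Across the 10 libraries, the tested gene whose log2 values followed each member most closely was PLXNB1 for JAG1 (Pearson r = 0.9965), TLN1 for NOTCH3 (0.9914), IQGAP3 for NOTCH2 (0.9831), CCDC71L for HES1 (0.981), ERVK3-1 for NOTCH1 (0.9756), DLGAP3 for JAG2 (0.962) and ALMS1 for RBPJ (0.9491). These coefficients are descriptions, because the 10 libraries share their 3 treatment groups and each partner is the closest of all tested genes.

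Around the members, 62 other genes of the pathway were listed by role, of which 60 were in the table and 59 tested. NOTCH4 and HES5 were not analysed here. With JQ1, 30 of the 59 were called, 9 higher and 21 lower, and with I-BET 762 there were 20, 5 higher and 15 lower, all of which were also called with JQ1. Among all tested genes, 13.3% were called higher and 22.8% lower with JQ1, and 8.96% higher and 17.9% lower with I-BET 762. The shares called higher among the 59 were near these with both inhibitors. The median log2 fold change of the 59 was −0.14 with JQ1 and −0.21 with I-BET 762. Rescaling to equal totals, which moved the median of all tested genes by −0.175 with JQ1, gave 5 higher and 22 lower with JQ1, so that 81.5% rather than 70.0% of the calls were lower. The calls of MIB2, FBXW7 and NRARP, named below, were among those lost there.

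Among the other ligands, DLL4, the Delta-like ligand known from sprouting vessels, rose from 10.7, 7.40 and 5.46 normalized counts with DMSO to 47.2, 42.4, 41 and 37.5 with JQ1 and 27.6, 22.1 and 24.6 with I-BET 762. All 3 groups were apart, with log2 changes of 2.32 with JQ1 (SE 0.25, limma adjusted p = 5.27e-07) and 1.58 with I-BET 762 (SE 0.27, limma adjusted p = 0.000107). DNER, a non-canonical ligand, rose from 0, 2.77 and 3.64 normalized counts to 9.79 to 19.0 with JQ1 and 10.8 to 24.1 with I-BET 762 (log2 2.36 and 2.62), at few reads in every library. Across the alternatives the log2 change of DNER lay between 1.32 and 2.78 for JQ1 and between 1.54 and 3.04 for I-BET 762, lowest with a pseudocount of 5. DLK2, a ligand-like inhibitor of Notch signalling, fell by 1.11 on the log2 scale with JQ1 and was −0.46 with I-BET 762, which was not called. These were the 3 genes called with JQ1 among 4 tested in this role, where 13.3% of all tested genes were called higher and 22.8% lower. DLL4 and DNER reached the filter of 10 normalized counts in 3 libraries only through the inhibitor libraries. A gene at such DMSO levels could enter the test only as a rise, so their calls as higher carry this limit. LFNG, a Fringe glycosyltransferase whose sugars favour Delta-like over Jagged ligands, was the 1 called of 6 receptor-glycosylation genes, and rose by log2 1.39 with JQ1 and 1.12 with I-BET 762 (mean 54.1 to 144 and 118 normalized counts).

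Of 9 cleavage genes, 6 were called with JQ1 (2 higher, 4 lower) and 3 with I-BET 762 (1 higher, 2 lower). Beside these, 13.3% of all tested genes were called higher and 22.8% lower with JQ1, and 8.96% and 17.9% with I-BET 762. APH1B, a γ-secretase subunit, fell from a mean of 635 ± 34.9 (SD, n = 3) to 205 ± 21.5 (n = 4) with JQ1 and 337 ± 23.3 (n = 3) with I-BET 762 (log2 −1.63 and −0.91). NCSTN, the nicastrin subunit, fell by 0.87 with JQ1 and was −0.48 with I-BET 762, under the fold threshold. PSEN2, a presenilin that forms the catalytic subunit, rose by log2 1.12 and 1.02 from a mean of 47.4 normalized counts.

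Of 13 genes of endocytosis and ubiquitination, 7 were called with JQ1 (2 higher, 5 lower) and 5 with I-BET 762, all lower. Over all tested genes the calls were 13.3% higher and 22.8% lower with JQ1, and 8.96% and 17.9% with I-BET 762. The Deltex ubiquitin ligase genes DTX1 and DTX3 fell most with JQ1: DTX1 from a mean of 99.0 to 20.46 and 30.7 normalized counts (log2 −2.24 and −1.66), and DTX3 from 1204 to 317 and 622 (log2 −1.93 and −0.95). NEURL1B, a Neuralized ligase for ligand uptake, fell from 7078 to 2564 and 3892 (log2 −1.47 and −0.86). MIB2, a Mind bomb ligase, and FBXW7, which marks the receptor fragment for degradation, rose with JQ1 by log2 0.69 and 0.60, and were 0.33 and 0.50 with I-BET 762, neither called. FBXW7 lost its call without DMSO replicate 13 or JQ1 replicate 18 (0.58 each).

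Of the nuclear cofactors, 4 of 8 coactivators and 3 of 13 corepressors were called with JQ1, and 2 and 3 with I-BET 762, all lower. Among all tested genes 22.8% were called lower with JQ1 and 17.9% with I-BET 762, and the corepressor share with JQ1 was near this. By the adjusted p alone both directions occurred. With JQ1, 3 coactivators were higher and 4 lower, and 3 corepressors higher and 7 lower. With I-BET 762 these were 1 and 4, and 3 and 8. MAML3, a Mastermind coactivator, fell by 1.09 and 0.72 on the log2 scale with JQ1 and I-BET 762, and KAT2A, a histone acetyltransferase, by 1.13 and 0.62. The corepressors TLE2, of the Groucho family, and L3MBTL3, a methyl-lysine reader known to bind RBPJ, fell 3.17-fold and 2.82-fold with JQ1 and 2.78-fold and 2.69-fold with I-BET 762.

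Of 6 other genes tested in the target role, a list that includes HES6, all 6 were called with JQ1 (2 higher, 4 lower). With I-BET 762 there were 4 (1 higher, 3 lower). The shares of all tested genes were 13.3% higher and 22.8% lower with JQ1, and 8.96% and 17.9% with I-BET 762. HES6, which is known to oppose HES1 and is not a classical Notch target, gave the largest change of the 59 with JQ1: 60.0, 81.4 and 94.6 normalized counts with DMSO, 941, 615, 863 and 612 with JQ1, and 415, 344 and 356 with I-BET 762. No library of 1 group overlapped another group, and the rise was log2 3.25 with JQ1 (SE 0.16, limma adjusted p = 6.32e-11) and 2.25 with I-BET 762 (SE 0.18, limma adjusted p = 2.54e-08). The HES-family repressor genes HES2, HES4 and HES7 fell, as HES1 did: HES2 by 0.99 and 1.31 on the log2 scale, HES4 by 0.88 and 1.57, and HES7 by 1.16 and 1.07 at means of 12.3 to 28.1 normalized counts. The HES7 calls were the least secure, with a limma adjusted p of up to 0.0716 with JQ1 (without DMSO replicate 13) and 0.191 with I-BET 762 across the alternatives. With I-BET 762 the call was lost without DMSO replicate 13 or 15 or I-BET 762 replicate 21 or 22. It was also lost with no intensity trend (limma adjusted p = 0.0651) and with no filter on low counts (limma adjusted p = 0.0705). HES7 overlapped between these groups, with I-BET 762 replicate 23 at 25.6 normalized counts and DMSO at 22.2 to 35.8. NRARP, a Notch-induced feedback inhibitor, rose with JQ1 by log2 0.67 (mean 77.7 to 125) and was 0.04 with I-BET 762, and its JQ1 call was lost without DMSO replicate 15 (0.58).

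**Figure D4:**
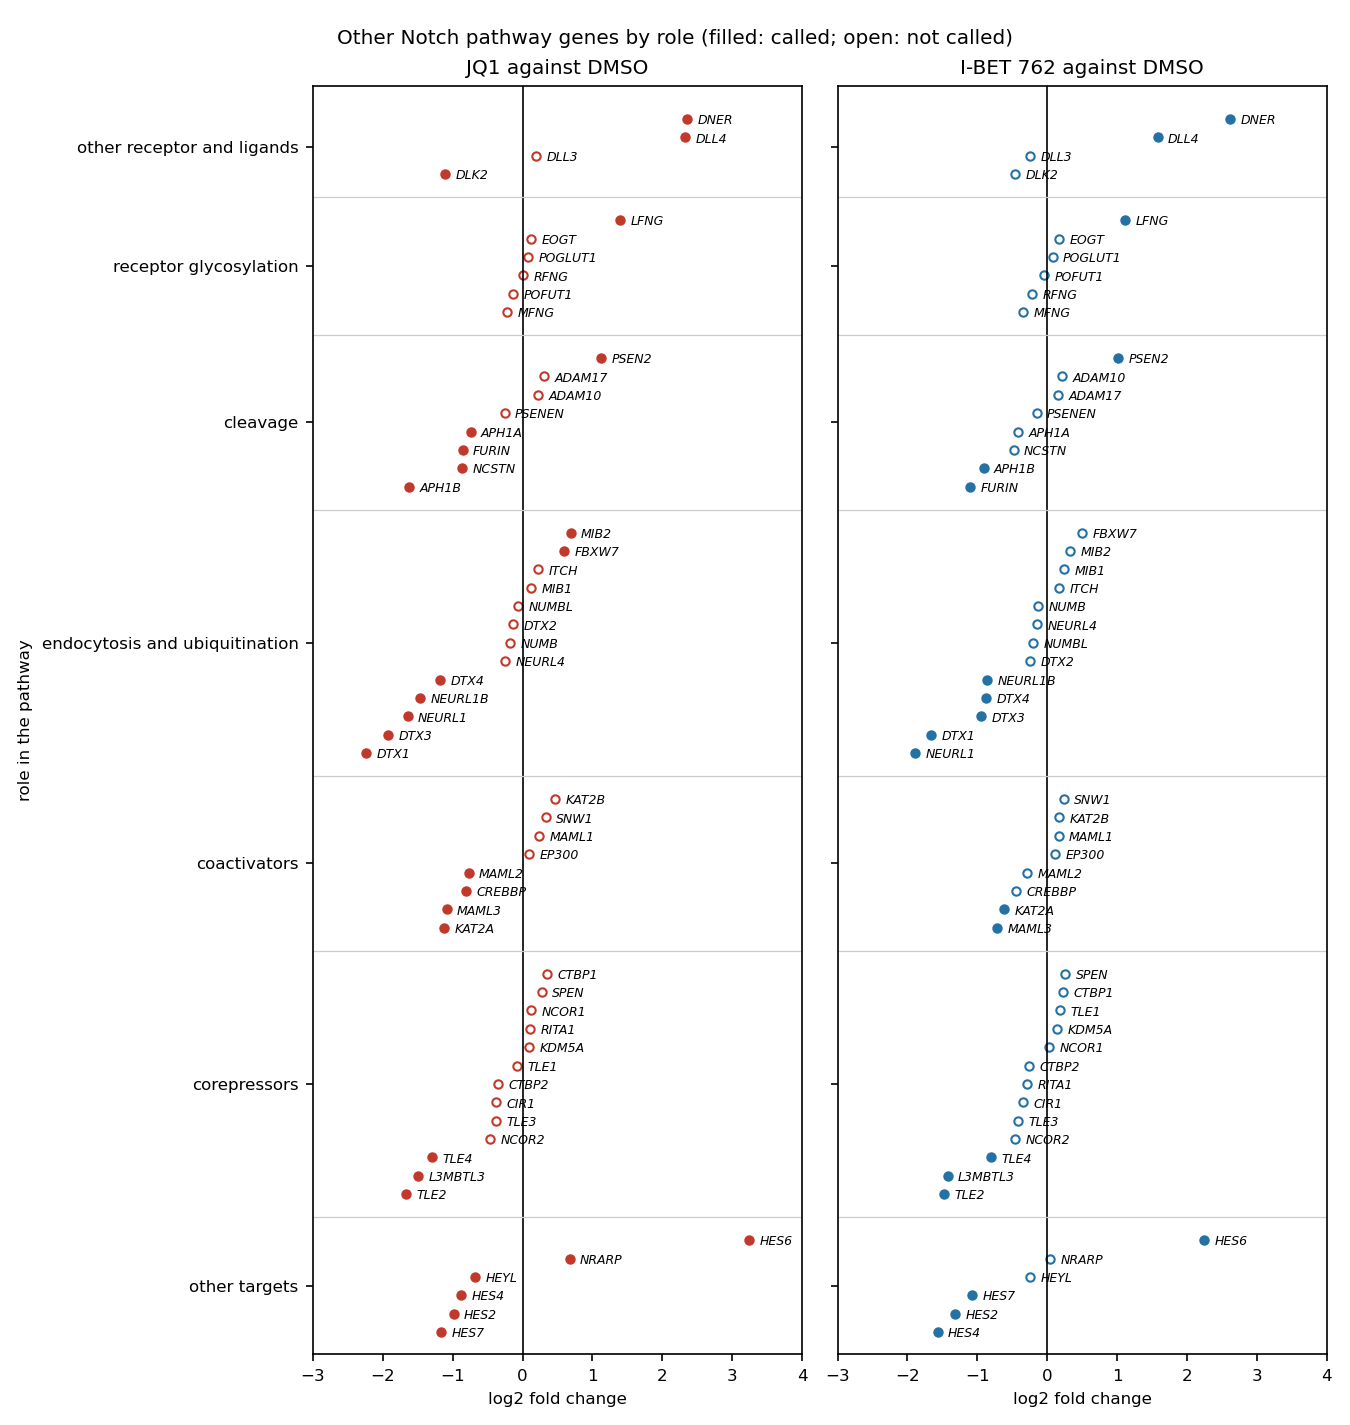
Log2 fold change (horizontal axis) of 58 of the 59 other tested Notch pathway genes, grouped by role on the vertical axis, for JQ1 against DMSO on the left and I-BET 762 against DMSO on the right. Filled circles are called and open circles are not, with 29 filled on the left and 20 on the right, and HES6 lies farthest from 0 with JQ1 at 3.25.

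Between the inhibitors, 8 of the 59 other genes were called, 4 higher and 4 lower with JQ1 than with I-BET 762, beside 1.73% of all tested symbols called higher and 3.59% called lower. HES6 (log2 1.0, limma adjusted p = 0.000402), DLL4 (0.74, limma adjusted p = 0.0396), HES4 (0.69, limma adjusted p = 0.0443) and NRARP (0.63, limma adjusted p = 0.00751) were higher with JQ1. DTX3 (−0.98), APH1B (−0.72), DLK2 (−0.65) and NEURL1B (−0.61) were lower. The calls of HES6, DTX3 and APH1B held under each alternative that kept the 1.5-fold threshold, with 1 gene left at a fold over 2, while DLL4 kept its call under 10 of 18 and HES4 under 4 of 18. Leaving out 1 library ended the call of DLL4 (any I-BET 762 library, or JQ1 replicate 17, 18 or 19), HES4 (any DMSO or I-BET 762 library, or JQ1 replicate 17 or 19), NRARP (JQ1 replicate 17 or 19, or I-BET 762 replicate 22), DLK2 (JQ1 replicate 18 or I-BET 762 replicate 21) and NEURL1B (JQ1 replicate 18).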

How the data were processed

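Per the labels and the study's methods, the authors trimmed reads from strand-specific total RNA libraries with Trimmomatic, aligned them to hg38 with HISAT2 2.2.1, counted them with featureCounts 2.0.3, left out outlier samples and normalized with DESeq2. Each deposited value is the log2 of a normalized count to which 1 was added, per gene symbol. Undoing the log2 gave whole reads (within 0.1) for 99.72% to 99.76% of values per library. Symbols with at least 10 normalized counts in at least 3 libraries were fitted with limma 3.58.1 (R 4.3.3), 10 libraries in 1 model with an intensity trend, and Benjamini-Hochberg adjustment over 14839 symbols. Called means adjusted p under 0.05 and fold over 1.5. Fold changes on the log2(count + 1) scale understate those of low genes. The code was tested on simulated data. HEY1 and HEY2 were compared by exact permutation of log2 values and by summed reads with exact intervals. Positions and exon lengths are from Gencode V44, promoters from RefSeq.

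The members and lists were chosen by name and not for their own values, although earlier results of these data were known. The other pathway genes named are, per role, up to 2 rises and 2 falls largest with JQ1 among those called with an inhibitor, and any called between inhibitors. A gene that this rule names is not reported here. Groups follow the treatment labels, and replicate numbers differ between groups. Alternatives were other pseudocounts, filters, scalings, moderation, fold thresholds, a model of 2 groups, limma-voom on recovered reads and leaving out each library.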

Additional observations from a re-analysis of the deposited data

Results flagged for a closer look

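APH1B, the γ-secretase subunit gene, had a JQ1 library far from the others of its group: JQ1 replicate 19 had 173 normalized counts, where the other 3 JQ1 libraries had 214 to 218. Its gap to the nearest library, over the whole range of the group on the log2 scale, was 0.935. Of 31 genes examined in the JQ1 group, the only group of 4, this was the 1 found, and chance gives about 1 in 20. All 4 JQ1 libraries were below all DMSO and I-BET 762 libraries, and without replicate 19 the gene was still called.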

How the results depend on the processing

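Under the alternatives the called members with JQ1 and with I-BET 762 each became 1 (JAG1) when a fold over 2 was required, and between the inhibitors 2 with no fold threshold and 0 to 1 when single libraries were left out. Requiring a mean count of at least 100, which tests fewer genes, gave 19, 10 and 5 of the other pathway genes with JQ1, with I-BET 762 and between inhibitors. These counts are not out of 59, since genes such as DLL4 then left the test. Of the 11072 genes tested there, 1445 were called higher and 1914 lower with JQ1. With I-BET 762 these were 891 and 1447, and between inhibitors 154 and 264. With no fold threshold the other pathway genes called were 48, 44 and 19, where 71.7%, 61.1% and 27.3% of all tested genes passed. With a fold over 2 they were 18, 13 and 1, and the share of all tested genes at that threshold is not given here. Leaving out single libraries gave 5 to 8 between inhibitors, 5 without JQ1 replicate 19 or I-BET 762 replicate 22. Under equal totals, which moved the median of all tested genes by −0.175 (JQ1), −0.097 (I-BET 762) and −0.088 (between), members were 0 higher and 4 lower with JQ1, JAG2 (−0.588) being added, and 0 and 3 with I-BET 762, as under equal upper quartiles. The other genes between inhibitors were then 1 higher and 5 lower, 83.3% lower rather than 50%. Small differences turned sign. Between the inhibitors, NOTCH1 was −0.019 (equal totals) and −0.014 to 0.207 (leaving out libraries), NOTCH3 −0.301 to 0.042, and JAG2 −0.075 (equal totals), −0.014 (equal upper quartiles) and −0.153 to 0.197. RBPJ was −0.155 (equal totals) and −0.035 (equal upper quartiles) with JQ1 and −0.009 (equal totals) with I-BET 762. NRARP with I-BET 762 was −0.055 (equal totals) and −0.053 to 0.125. No paired analysis was made, because no source states a pairing of libraries between groups. The replicate numbers, which differ between groups, do not show whether there was any. The causes were not tested. With no filter on low counts HEY2 with JQ1 was called as well, for 5 of the 9 members in the table. Of the 22784 symbols in that fit, 2143 were called higher and 4113 lower with JQ1. The ratio of JAG1 to JAG2 per kilobase, averaged over libraries, moved from 2.2, 0.564 and 0.781 (DMSO, JQ1, I-BET 762) to 3.11, 0.797 and 1.1 by longest transcript, chosen after seeing the data. Depth limits HEY1 and HEY2, with 31 and 1 reads over the DMSO libraries.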
